A study of Mus musculus with 4 samples.

Results

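The proteasome genes described here were the 47 entries of the deposited expression table, of 26068 that name a gene, whose symbol is Psm with a class letter from a to g and a number. They were measured in total RNA of whole testes from male B6D2F1 mice aged 24 days. Of the 4 libraries, 2 came from mice homozygous for an Adad2 knockout and 2 from wild type mice, and nothing else in the labels set the groups apart. The labels do not say whether the libraries of a group came from separate mice, so p-values measure only the spread between these libraries, which may be technical. Adad2 encodes a double-stranded RNA-binding protein of male germ cells, and the question addressed here is whether transcripts of the protein degradation machinery differed in testes of the knockout.

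The proteasome degrades proteins tagged with ubiquitin. Its barrel-shaped core, the 20S particle, stacks rings of alpha subunits, which form the gate, around rings of beta subunits, some of which carry the cutting sites. The 19S cap recognises and unfolds the tagged protein with a ring of ATPases, and other activators can take the place of that cap. In testis, germ cells make a form of the core with the alpha subunit Psma8 in place of its paralog Psma7, and the activator Psme4 has been tied to the removal of histones from spermatids.

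Values are on the log2 RPKM scale (reads relative to a gene's length and to the size of the library). How reads were counted is not given, so comparisons of level between different genes are rough. Estimated depth was 33100000 and 29100000 reads in the knockout libraries and 29900000 and 36700000 reads in the wild type libraries. Adad2 itself was at 3.73 and 3.30 log2 RPKM in knockout testes and at 4.66 and 4.47 in wild type testes, 2.07-fold lower in knockout (limma adjusted p = 0.00604). Its RNA was thus still measured in knockout libraries, and the labels do not say which part of the gene the knockout changes. Across 13414 genes with a mean of at least 0 on the log2 RPKM scale, limma called 959 lower and 163 higher in knockout at an adjusted p under 0.05, and the median change of all of them was 0.14 on the log2 scale. Marker lists of spermatids stood apart. In knockout, 7 of 8 elongating spermatid markers were called lower. The other, Tnp2, had a change of −5.39 and was not called (limma adjusted p = 0.0761). The summed level of the 8 was 75.3 and 41.1 RPKM in knockout testes against 819 and 782 RPKM in wild type testes. Of 8 round spermatid and acrosome markers 6 were called lower, and none of the 8 had an estimated change above 0. Their sums were 179 and 150 RPKM in knockout testes against 280 and 272 RPKM in wild type testes. None of 8 pachytene spermatocyte markers was called, with sums of 1831 and 1722 RPKM in knockout testes and 1580 and 1860 RPKM in wild type testes. An estimated change above 0 was found for 7 of the 8 (87.5%, against 71.8% of all genes), with a median of 0.13. None of the tested spermatogonial (6), Sertoli (7), Leydig (6) or macrophage and lymphocyte (6) markers was called either. All of these had estimated changes above 0, with medians of 0.24, 0.27, 0.27 and 0.10 in that order. In whole testes, fewer cells of a type and less RNA per cell cannot be told apart.

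Of the 47 proteasome genes, 44 passed the filter on low values, and 3 of these were called in either direction, where 8.36% of all genes tested were. Psma8, the germ cell alpha subunit, rose in knockout testes. Psma6, another subunit of the alpha ring, and Psmf1, a protein that binds the core and inhibits it in vitro, fell. The 2 genes called lower are 4.55% of the proteasome genes tested, against 7.15% of all genes, and the 1 called higher is 2.27%, against 1.22% of all genes. The other 41 were not called, with changes between −0.17 and 0.45 on the log2 scale and limma adjusted p-values between 0.0884 and 0.999. Estimated changes were above 0 for 35 of the 44 tested proteasome genes (79.5%, against 71.8% of all genes). They lay within 0.2 of 0 for 27 of the 44, and for 6284 of all 13414 genes tested. Both knockout libraries lay above both wild type libraries for 23 of the 44 proteasome genes (52.3%), against 46.4% of all genes tested. Both lay below for 4 of 44 (9.09%), against 16.8% of all genes tested. The median change of the 44 was 0.15, beside 0.14 for all genes. At an unadjusted p under 0.05, limma put 12 of the 44 higher (27.3%, against 15.6% of all genes) and 2 lower (4.55%, against 11.3%). In both directions together that is 31.8% of the proteasome genes and 27.0% of all genes. The order turned round under several of the alternatives given at the end. Among these were equal library medians (22.7% against 25.8%) and limma without trend and robust estimation (18.2% against 25.2%). The level of all 47 summed to 1134 and 1119 RPKM in knockout testes and to 996 and 1086 RPKM in wild type testes.

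**Figure D1:**
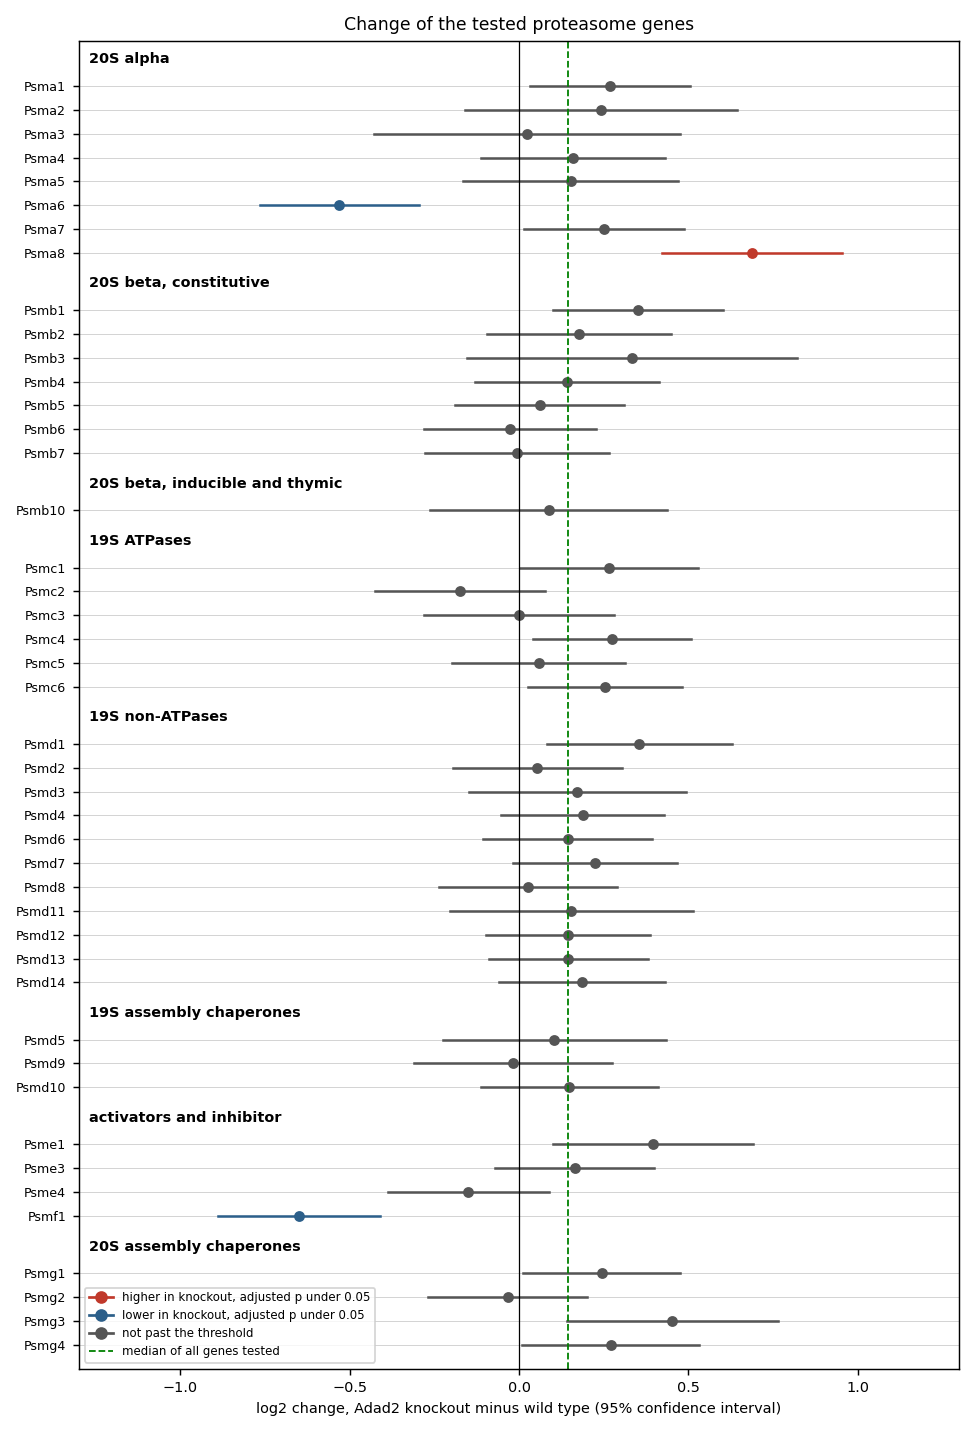
Log2 change of each of the 44 tested proteasome genes, knockout minus wild type, with 95% confidence intervals from limma, by class of the complex. The dashed line marks the median change of all 13414 genes tested, 0.14. Psma8 lies to the right of the other genes, Psma6 and Psmf1 lie to the left, and the intervals of most of the rest include the dashed line.

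The alpha ring held the gene with the largest rise and 1 of the 2 called lower. All 8 of its genes were tested, 6 of them without a call, and their median change was 0.20. Psma8 was at 6.77 and 6.87 log2 RPKM in knockout testes and at 6.04 and 6.22 in wild type testes. Both knockout libraries were above both wild type libraries, by more than the libraries of a group differed from each other. Psma8, at mm9 chromosome 18 from 14864660 to 14920808 on the plus strand, averaged 6.82 ± 0.07 in knockout and 6.13 ± 0.13 in wild type (SD, n = 2 each), a change of 0.69 (SE 0.12, 95% confidence interval 0.42 to 0.95, limma adjusted p = 0.00756), or 1.61-fold. In linear units it stood at 109 and 117 RPKM in knockout testes against 66.0 and 74.7 RPKM in wild type testes. Without wild type replicate 1 the change was 0.60 and the call was lost, as was that of every other gene called. Of 8 pachytene markers, from the stage at which Psma8 is known to be expressed, none was called. Estimated changes were above 0 for 7 of them (87.5%, against 71.8% of all genes), with a median of 0.13. All tested spermatogonial, Sertoli and Leydig markers also had estimated changes above 0. The part of any of these cell types in this result was not tested.

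Psma7, the paralog that holds the place of Psma8 in somatic cells, was at 3.49 and 3.50 log2 RPKM in knockout testes and at 3.31 and 3.19 in wild type testes. It too was higher in both knockout libraries, by 0.25 (SE 0.10), and was not called (limma adjusted p = 0.168). On the RPKM scale Psma8 stood 10.02-fold above Psma7 in knockout testes and 7.40-fold above it in wild type testes. The log2 ratio of Psma8 to Psma7 was 3.28 and 3.37 in knockout testes and 2.74 and 3.04 in wild type testes. This ratio was higher in both knockout libraries, with a two-sided exact permutation p of 0.333, the smallest that 2 against 2 libraries allow. Psma8 made up 56.6% and 58.3% of the summed alpha subunit RPKM in knockout testes and 41.6% and 43.5% in wild type testes. The sum includes Psma6, which was called lower, and Psma3, Psma4 and Psma5, whose levels are uncertain because of near-identical copies. These shares are therefore uncertain too.

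Psma6 is a constitutive alpha subunit found in core particles of all tissues. It was at 5.28 and 5.30 log2 RPKM in knockout testes and at 5.79 and 5.85 in wild type testes. The groups were apart by far more than the gap between libraries of a group. The gene, at mm9 chromosome 12 from 56485209 to 56519441 on the plus strand, averaged 5.29 ± 0.01 in knockout and 5.82 ± 0.05 in wild type (SD, n = 2 each), a change of −0.53 (SE 0.10, 95% confidence interval −0.77 to −0.30, limma adjusted p = 0.0142). It was the only alpha subunit whose estimated change was below 0. The call was lost without wild type replicate 1 (change −0.56), as was that of every other gene called. It was also lost without wild type replicate 2 (change −0.50), where far fewer genes were called. The spermatid markers above fell in the same libraries, and their part in this result was not tested.

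RefSeq gives Psma6 more than 1 transcription start in GRCm38.p6, with promoters 14603 bases apart. A value summed over the gene, as deposited, does not tell which start was used. Both promoters are shown because they differ in composition. They are the 250 bases before each start on the plus strand, at chr12:55383972-55384221 and chr12:55398575-55398824, and capitals mark the motif CCAAT or its reverse complement, the only motif of those searched that they hold.
Psma6 promoter 1: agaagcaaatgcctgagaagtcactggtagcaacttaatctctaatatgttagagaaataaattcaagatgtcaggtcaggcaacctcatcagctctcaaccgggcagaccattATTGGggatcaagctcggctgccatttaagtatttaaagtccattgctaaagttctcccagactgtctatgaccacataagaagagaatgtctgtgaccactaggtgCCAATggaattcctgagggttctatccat
Psma6 promoter 2: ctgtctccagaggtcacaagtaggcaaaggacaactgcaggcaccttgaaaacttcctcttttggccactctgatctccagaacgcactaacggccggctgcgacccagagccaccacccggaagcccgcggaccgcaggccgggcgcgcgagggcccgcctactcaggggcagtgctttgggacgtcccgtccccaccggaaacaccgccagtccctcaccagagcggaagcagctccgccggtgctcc
The first is 42.8% G and C with 2 CCAAT matches, and the second is 65.6% G and C with none.

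None of the 7 constitutive beta subunits was called, and their median change was 0.14. Their changes ran from −0.03 for Psmb6 to 0.35 for Psmb1. Psmb1, a beta subunit with no cutting site of its own, was at 4.61 and 4.66 log2 RPKM in knockout testes and at 4.19 and 4.37 in wild type testes. It was the only one of the 7 whose groups did not overlap. Both its knockout libraries were higher, which held for 14.3% of the class against 46.4% of all genes tested. Its change was 0.35 (SE 0.11) with a limma adjusted p of 0.0966, and it passed the threshold after quantile normalization (limma adjusted p = 0.0462).

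Psmb5, Psmb6 and Psmb7 carry the cutting sites. Psmb5 was at 4.90 and 4.92 log2 RPKM in knockout testes and at 4.76 and 4.93 in wild type testes. Psmb6 was at 4.57 and 4.50 in knockout testes and at 4.47 and 4.66 in wild type testes. Psmb7 was at 4.78 and 4.92 in knockout testes and at 4.75 and 4.97 in wild type testes. The groups overlapped for all 3, with changes of 0.06 (95% confidence interval −0.19 to 0.31), −0.03 and −0.01, and the sign of each depended on which library was left out.

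Psmb8, Psmb9 and Psmb10 replace these 3 in the immunoproteasome, the form induced by interferon. Psmb9 was not analysed here. Psmb10 was at 1.46 and 1.69 log2 RPKM in knockout testes and at 1.41 and 1.57 in wild type testes, with overlapping groups and a change of 0.09 (limma adjusted p = 0.706). On the RPKM scale it stood at 0.103 of the level of Psmb7 in knockout testes and at 0.0968 of it in wild type testes. Psmb8 was below the filter, at −1.64 and −1.75 in knockout testes and at −1.79 and −1.85 in wild type testes. Psmb11, the thymic subunit, had 3 and 0 reads in knockout testes and 1 and 0 reads in wild type testes, as estimated from the size of 1 read. None of the 4 tested genes of an interferon response list of 8 was called, with a median change of 0.23.

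**Figure D2:**
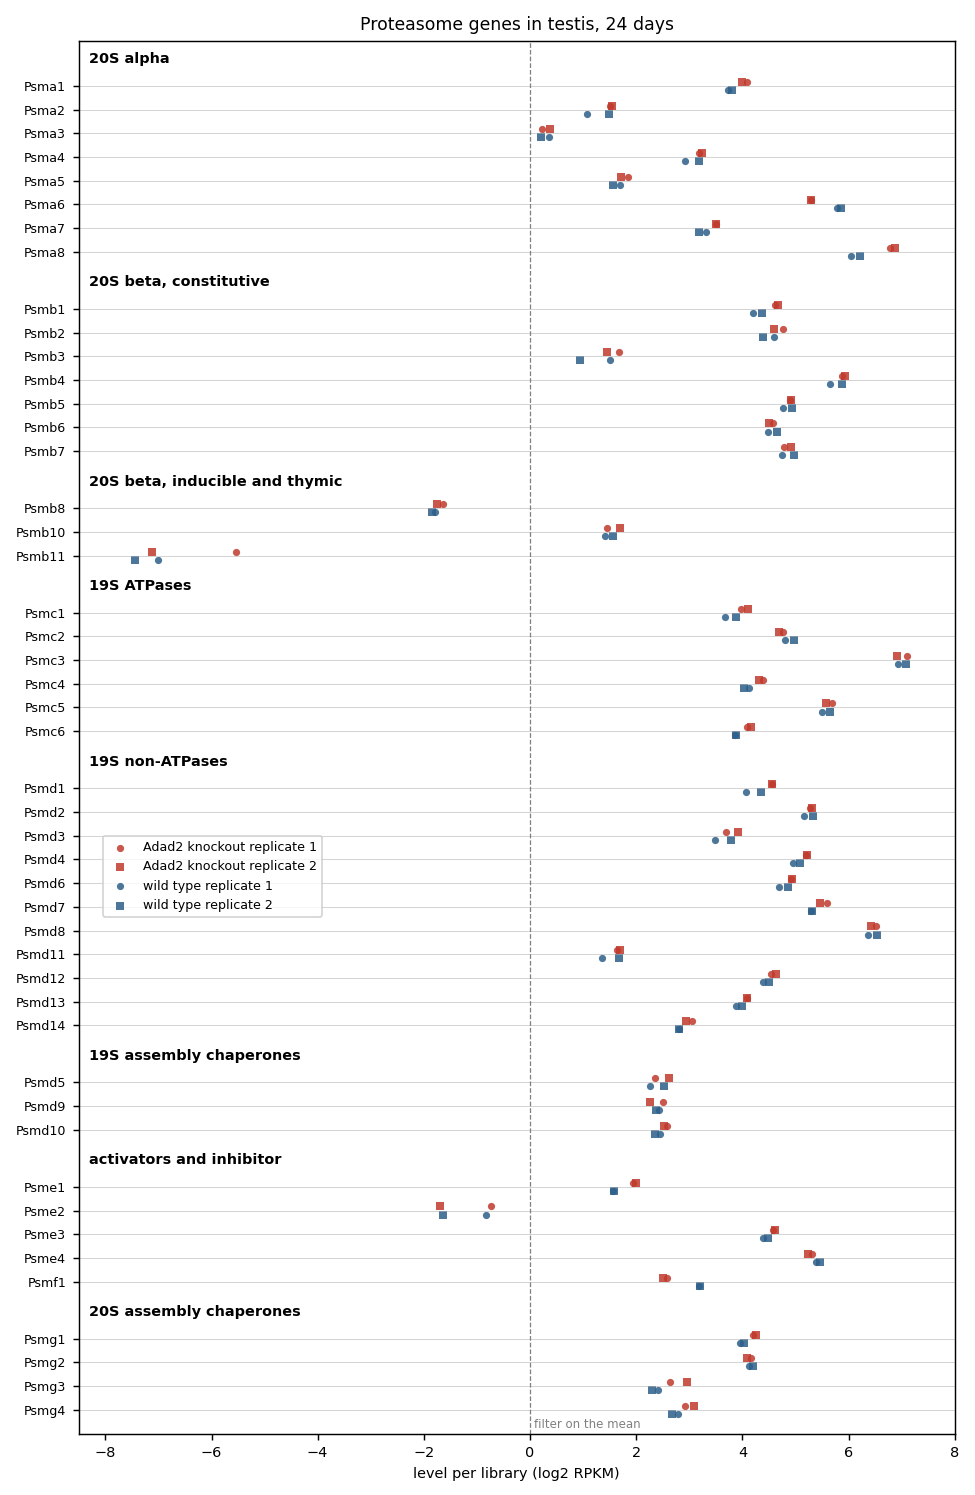
Log2 RPKM of all 47 proteasome genes in each of the 4 libraries, by class, with knockout and wild type points in separate colours and the dashed line at the filter of 0. Psmc3, Psma8 and Psmd8 are the highest, Psmb8, Psmb11 and Psme2 the lowest, and for most genes the points of the groups lie close together.

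The 19S cap showed no called gene. Its ATPase ring, Psmc1 to Psmc6, had 6 tested genes and a median change of 0.16, with values from −0.17 for Psmc2 to 0.28 for Psmc4. Psmc3, an ATPase of the ring, was the highest proteasome gene on the RPKM scale. It was at 7.10 and 6.91 log2 RPKM in knockout testes and at 6.93 and 7.08 in wild type testes, so the groups overlapped. Psmc4 was at 4.39 and 4.32 in knockout testes and at 4.12 and 4.04 in wild type testes, the widest difference of the ring (0.28, SE 0.10, limma adjusted p = 0.139). Psmc2 was at 4.76 and 4.68 in knockout testes and at 4.81 and 4.98 in wild type testes (−0.17, limma adjusted p = 0.308). It was the only one of the 6 with both knockout libraries lower (16.7%, against 16.8% of all genes tested).

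The 11 non-ATPase subunits had estimated changes above 0 in every case (100%, against 71.8% of all genes). These changes ran from 0.03 to 0.36, with a median of 0.15 beside the 0.14 of all genes. Psmd1, a large scaffold subunit, had the widest. It was at 4.56 and 4.57 log2 RPKM in knockout testes and at 4.08 and 4.34 in wild type testes (0.36, SE 0.12, limma adjusted p = 0.116). The ubiquitin receptor Psmd4 was at 5.19 and 5.21 in knockout testes and at 4.95 and 5.08 in wild type testes, and the deubiquitinase Psmd14, which removes ubiquitin chains from the substrate, was at 3.05 and 2.94 in knockout testes and at 2.81 and 2.81 in wild type testes. Both knockout libraries were above both wild type libraries for 7 of the 11 (63.6%, against 46.4% of all genes tested). The 3 chaperones that assemble the cap, Psmd5, Psmd9 and Psmd10, had changes from −0.02 to 0.15, and none was called.

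Among activators and the inhibitor, 1 of 4 tested genes was called. Psmf1 was at 2.57 and 2.51 log2 RPKM in knockout testes and at 3.19 and 3.20 in wild type testes. The libraries of each group lay close together, and the groups did not overlap. The gene, at mm9 chromosome 2 from 151541548 to 151569922 on the minus strand, averaged 2.54 ± 0.04 in knockout and 3.19 ± 0.01 in wild type (SD, n = 2 each), a change of −0.65 (SE 0.10, 95% confidence interval −0.89 to −0.41, limma adjusted p = 0.00592), or 1.57-fold lower. The call was lost without wild type replicate 1 (change −0.66), as was that of every other gene called. It was also lost without wild type replicate 2 (change −0.65), where far fewer genes were called. As for Psma6, the fall of spermatid markers in the same libraries was not tested as a part of this result.

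The Psmf1 promoter is shown beside those of Psma6 because these are the genes called lower. It is the 250 bases before the RefSeq start in GRCm38.p6, at chr2:151741311-151741560 on the minus strand, and holds none of the motifs searched, so it has no capitals.
Psmf1 promoter 1: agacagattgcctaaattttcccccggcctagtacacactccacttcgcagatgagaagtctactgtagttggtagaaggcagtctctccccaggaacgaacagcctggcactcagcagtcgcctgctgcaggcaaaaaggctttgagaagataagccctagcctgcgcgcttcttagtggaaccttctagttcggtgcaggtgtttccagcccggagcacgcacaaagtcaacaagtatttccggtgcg
Each motif was searched on both strands of windows of 300 bases around RefSeq starts, in 42 promoters of 39 proteasome genes and in 32851 promoters of all genes. The antioxidant response core TGACNNNGC, which NFE2L1 and NFE2L2 bind, was in 6 proteasome promoters (14.3%, against 12.4% of all promoters). The palindromic cyclic AMP response element TGACGTCA was in none of them, against 1.79% of all promoters. Its core TGACG, which lies inside that palindrome and can overlap TGACNNNGC, was in 19 (45.2%, against 20.8% of all promoters). CCAAT was in 13 (31.0%, against 37.4% of all promoters). The promoters compared were not matched for G and C content. These are matches of letters, and nothing in these data measured binding.

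The activators proper were not called. Psme4, the activator tied to histone removal, was at 5.32 and 5.24 log2 RPKM in knockout testes and at 5.39 and 5.46 in wild type testes, with both knockout libraries lower (−0.15, SE 0.10, limma adjusted p = 0.348). Psme3, a nuclear activator of the family to which Psme1 and Psme2 belong, was at 4.58 and 4.61 in knockout testes and at 4.38 and 4.48 in wild type testes (0.16, limma adjusted p = 0.306). The log2 ratio of Psme4 to Psme3 was 0.74 and 0.63 in knockout testes and 1.01 and 0.98 in wild type testes, lower in both knockout libraries, with an exact permutation p of 0.333, again the smallest possible. Psme1, an interferon-induced activator subunit, was at 1.93 and 1.999 in knockout testes and at 1.57 and 1.58 in wild type testes (0.39, SE 0.13, limma adjusted p = 0.109). Its partner Psme2 was below the filter, at −0.73 and −1.70 in knockout testes and at −0.83 and −1.63 in wild type testes. Within each group the libraries of Psme2 differed by far more than the groups did.

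The 4 chaperones that assemble the core, Psmg1 to Psmg4, had the highest class median, 0.26 beside 0.14 for all genes, with none called. Psmg1 and Psmg2 work as a pair, and so do Psmg3 and Psmg4. Psmg3 was at 2.65 and 2.97 log2 RPKM in knockout testes and at 2.40 and 2.30 in wild type testes, the largest change among genes not called (0.45, SE 0.14, limma adjusted p = 0.0884), and it passed the threshold without Adad2 knockout replicate 1 (change 0.61, limma adjusted p = 0.00244). Psmg4 was at 2.92 and 3.08 in knockout testes and at 2.78 and 2.68 in wild type testes. Psmg1 was at 4.21 and 4.26 in knockout testes and at 3.96 and 4.02 in wild type testes. These 3 of 4 (75%, against 46.4% of all genes tested) were higher in both knockout libraries. Psmg2 overlapped, at 4.17 and 4.09 in knockout testes and at 4.12 and 4.20 in wild type testes.

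A list of 34 other genes that make, feed or regulate the proteasome was read from the same test. Of its 32 tested genes, 2 were called lower (6.25%, against 7.15% of all genes) and none higher. An estimated change above 0 was found for 23 of them (71.9%, against 71.8% of all genes), and their median change was 0.11, beside 0.14 for all genes. Ddi1, a ubiquitin shuttle protein with a retroviral-type protease fold, was at 3.84 and 3.48 log2 RPKM in knockout testes and at 5.12 and 4.97 in wild type testes, 2.62-fold lower (limma adjusted p = 0.000749). Ngly1, the enzyme that strips N-glycans from misfolded proteins, was at 3.80 and 3.62 in knockout testes and at 4.40 and 4.34 in wild type testes, 1.58-fold lower (limma adjusted p = 0.00710). The groups did not overlap for either gene. Without wild type replicate 1 the calls of Ddi1 (change −1.31) and Ngly1 (change −0.63) were lost, as were those of all other genes called. Without wild type replicate 2, where far fewer genes were called, the call of Ngly1 was lost (change −0.69). Ubqlnl, a ubiquilin relative named after its values were seen, averaged below the filter and was at −1.72 and −3.50 in knockout testes and at 2.09 and 2.11 in wild type testes, which is about 23.1 and 5.93 reads in knockout testes against 292 and 365 reads in wild type testes. With no filter on low values its limma adjusted p was 0.0341. The elongating spermatid markers fell in the same libraries, and their part in these results was not tested.

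**Figure D3:**
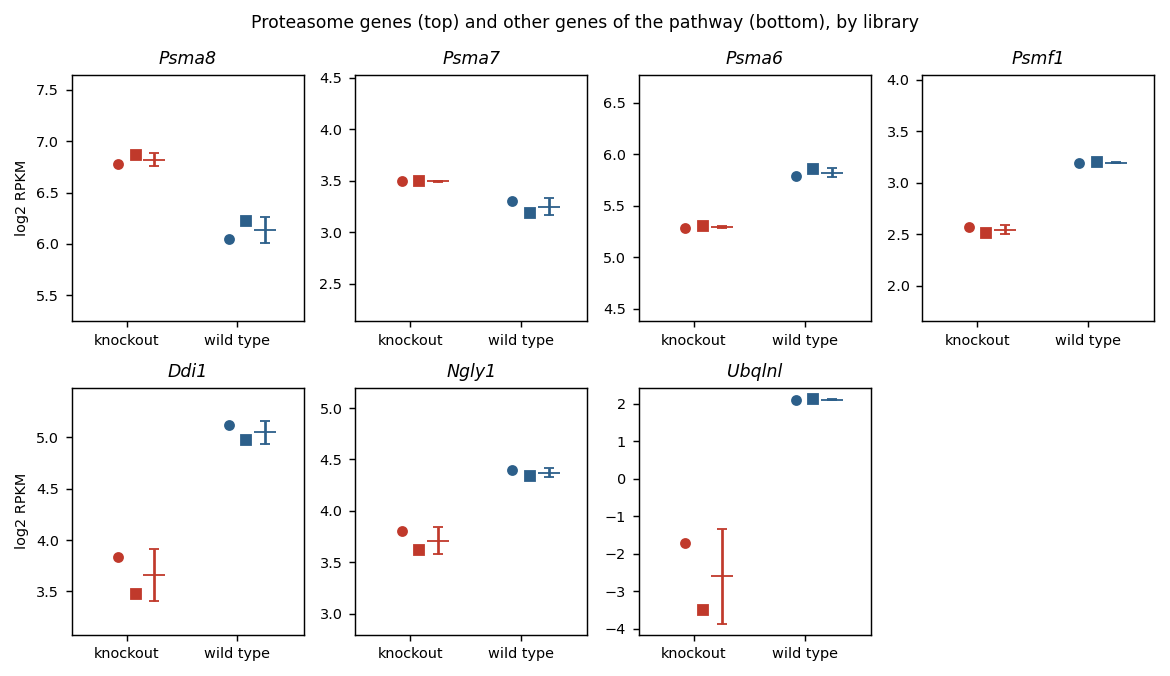
Log2 RPKM in each library (circles replicate 1, squares replicate 2) for Psma8, Psma7, Psma6 and Psmf1 (top) and for Ddi1, Ngly1 and Ubqlnl (bottom), with the mean and SD of each group beside its points (n = 2 each) and knockout left of wild type. Panels start at different levels, and the axis of Ubqlnl spans more log2 units than the others. Knockout points lie above the wild type points for Psma8 and Psma7 and below them for the other genes.

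Near-identical copies elsewhere in the genome limit the level of some proteasome genes, since reads that match both may be divided or dropped. Copies were sought among Gencode M21 transcripts annotated as pseudogenes or processed transcripts, together with Psme2b. One with at least 95% identity over at least 200 bases was found for 9 of the 47 genes. These were Psma3, Psma4, Psma5, Psmb3, Psmb5, Psmc1, Psmd2, Psmd11 and Psme2, so none of the 3 called genes was among them. Matches of Psmd1 to Gm21972 (100% over 305 bases) and of Psmg3 to Gm26938 (100% over 238 bases) were not counted, and their loci were not checked. Their median level was 1.71 log2 RPKM, against 4.18 for the other 38. For 4 of them the table lists a copy above the gene. Psme2 averaged −1.22 and its copy Psme2b 4.35 log2 RPKM, with the copy at 4.46 and 4.34 in knockout testes and at 4.35 and 4.23 in wild type testes. Psma5 averaged 1.71 and its copy Gm8394 4.71, with the copy at 4.70 and 4.83 in knockout testes and at 4.67 and 4.63 in wild type testes. Psmb3 averaged 1.39 and its copy Gm4950 4.18, with the copy at 4.22 and 4.37 in knockout testes and at 3.93 and 4.20 in wild type testes. Psmd11 averaged 1.59 and its copy A730017L22Rik 3.03, with the copy at 2.97 and 2.96 in knockout testes and at 3.06 and 3.12 in wild type testes. None of these copies was called. The levels of the 9 genes and of their copies are therefore uncertain.

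How little separates a gene from its copy is shown for a coding stretch of 60 bases that differs at 1 base, in capitals. The sequences are Gencode M21 transcripts (GRCm38), read along the coding strand, at coding bases 48 to 107 of Psma5 (chromosome 3) and Gm8394 (chromosome 10), counted from the first base of the member's start codon.
Psma5: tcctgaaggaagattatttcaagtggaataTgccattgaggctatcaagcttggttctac
Gm8394: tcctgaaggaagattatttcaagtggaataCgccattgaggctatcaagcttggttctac
Over the whole coding sequence Psma5 and Gm8394 differ at 8 of 723 bases (98.9% identity). Other members may share reads with a neighbour where genes overlap, as Psmd13 and Sirt3, on opposite strands, do over 342 bases, and no such overlap was found for Psma8, Psma6 or Psmf1.

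**Figure D4:**
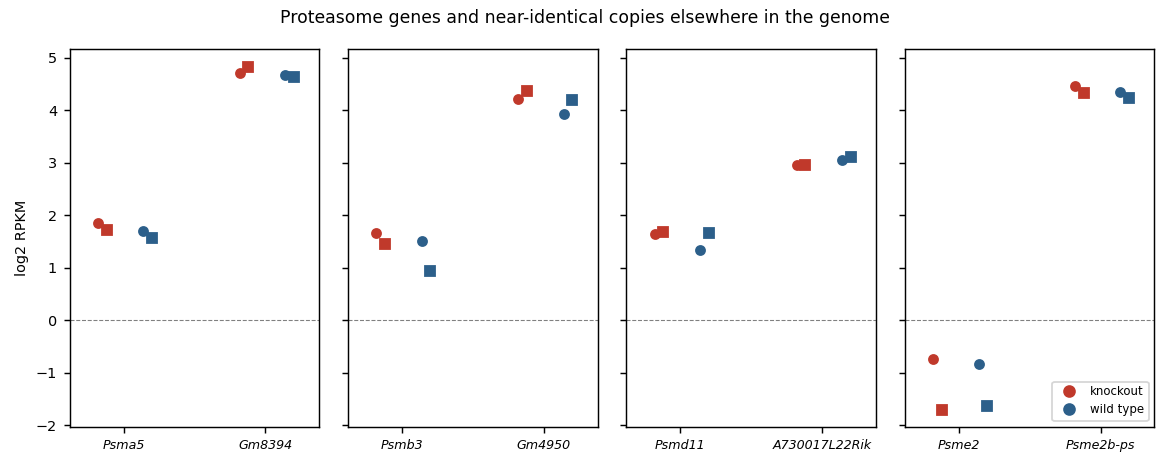
Log2 RPKM in each library (circles replicate 1, squares replicate 2, knockout left of wild type) for 4 proteasome genes and for a near-identical copy of each, under the name the table gives it. The dashed line is the filter on the mean. In each panel the copy lies above the gene in all 4 libraries, most of all for Psme2, and knockout and wild type points of a gene lie close together.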

How the data were processed

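RNA of Adad2 knockout and wild type testes was sequenced from TruSeq libraries, 2 per group, per the labels' protocols. Bowtie2, bcl2fastq 2.17.1.14 and the build mm9 appear in the submitters' processing notes. How reads were counted, and whether by strand, is not given in the sources used here, so overlapping genes on opposite strands may share reads. The authors deposited log2 RPKM values, with genes without reads set near 0.9 of a read. The 59 entries with no gene name (0.226%) were left out. The table holds no read counts. Depth was estimated from the steps between low values of 621 single-exon genes (up to 10 reads), of which 95.9% to 97.7% per library came within 2% of a whole read, and estimated reads per tested proteasome gene and library ran from 114 to 13600.

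Differences were tested with limma 3.58.1 (R 4.3.3, trend and robust, statmod 1.5.0) on the deposited values of genes with a mean of at least 0, with two-sided p-values adjusted by Benjamini and Hochberg's method over 13414 genes. No pseudocount was added. The test was tried on simulated data. A gene that was not called is not thereby shown to be unchanged. Copies were searched with BLAST+ 2.17.0, and promoters are from the RefSeq table. The genes with values in every library are those past the threshold, Psma8 and Psma7, the inducible beta subunits and those they replace, Psmb11, the activators, Psmf1, Psmg1 to Psmg4, the gene with the largest change in each class, and a few of known role. The members, lists and rule were chosen with earlier results of these data known, and an item of the pathway list and a sequence are not reported here. Alternatives changed the filter, pseudocount, scaling, limma settings, replicate block and libraries.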

Additional observations from a re-analysis of the deposited data

How the results depend on the processing

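Psma6 and Psmf1 stayed lower and Psma8 higher under every alternative run, and lost their calls only where a wild type library was left out. Counts over all genes were less stable. The 959 lower calls became 637 with a filter at a mean of 2, and ranged from 0 to 1308 with 1 library left out. The 163 higher calls became 97 with no filter and 245 after quantile normalization, and ranged from 0 to 494 with 1 library left out. Without wild type replicate 1, limma called 0 genes, while 2357 genes and 7 proteasome genes had an unadjusted p under 0.05. Proteasome genes called lower ranged from 0 to 2 with 1 library left out. Those called higher numbered 2 after quantile normalization, which adds Psmb1, and ranged from 0 to 2 with 1 library left out. The median change of the proteasome genes was 0.14 with log2(RPKM + 1) and ranged from 0.085 to 0.20 with 1 library left out.

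The labels give same-numbered libraries nothing in common but the number, and name no shared litter or day. Their deviations correlated at 0.331 across genes, and whether they share anything more is not known. With the replicate block, 1477 genes were called lower and 1837 higher, and 5 proteasome genes were called higher (Psma8, Psmb1, Psmd1, Psme1 and Psmg3), with 2 lower as before.

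Changes near 0 turned sign with the library left out. They ranged from −0.031 to 0.21 for Psmb10, −0.027 to 0.15 for Psmb5, −0.12 to 0.065 for Psmb6, −0.11 to 0.10 for Psmb7 and −0.075 to 0.0087 for Psmg2, and Psmb7 was at 0.0072 after quantile normalization. The cause was not tested. The share of genes with an unadjusted p under 0.05 was lower among proteasome genes than among all genes with equal library medians (22.7% against 25.8%), without trend and robust estimation (18.2% against 25.2%), with the replicate block (34.1% against 38.7%), without wild type replicate 1 (15.9% against 17.6%) and without knockout replicate 1 (20.5% against 24.6%) or 2 (11.4% against 22.6%), and higher under the other alternatives.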
